A study of Homo sapiens with 6 samples.

Results

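Golgi glycosyltransferases and sulfotransferases were followed in the triple-negative breast cancer (TNBC) cell line MDA-MB-231 after silencing of Sam68. The set was taken by gene symbol from the deposited table of normalized read counts, as the numbered members of 10 gene families: GALNT (1 symbol was not analysed here), B3GNT, B3GALT, B4GALT, ST3GAL, ST6GAL, ST6GALNAC, FUT, MGAT and CHST. The symbols gave 84 loci of the 74852 in the table. The loci were taken by name, but the families were chosen with earlier results of these data known. Of these 84 loci, 65 had a mean of at least 10 normalized reads over the 6 libraries and were tested, 12 had reads but stayed below that minimum, and 7 were at 0 in every library. At 6 of the 84 loci the table joined the enzyme with another gene, and such a locus holds the reads of its genes together. One of them, MGAT4B // MIR1229, joins an enzyme with a microRNA only and was set among the single enzymes where levels are compared.

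Glycans are built in the Golgi by enzymes that each add 1 kind of sugar, or a sulfate group, in 1 kind of bond. GALNT enzymes start mucin-type O-glycans by adding N-acetylgalactosamine to serine or threonine, MGAT enzymes set the number of branches of an N-glycan, and B3GNT, B3GALT and B4GALT enzymes lengthen the chains. Sialyltransferases (ST3GAL, ST6GAL, ST6GALNAC) and fucosyltransferases (FUT) cap or decorate them, and CHST enzymes sulfate keratan, chondroitin and dermatan chains or sialyl Lewis type caps. In breast cancer cells, branched N-glycans, truncated O-glycans and sialylated caps on surface proteins have long been studied in connection with adhesion and spread.

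The comparison was between 2 groups of 3 libraries each, named si-CTRL for cells given non-targeting control siRNAs and si-SAM68 for cells given 4 siRNAs that together target SAM68. Sam68, encoded by KHDRBS1, is an RNA-binding protein of the STAR family that acts in splicing, and the experiment asked which RNAs depend on it in TNBC cells. The labels give 2 rounds of transfection with harvest 24 h after the second and a library kit that keeps the strand, whereas the methods time the harvest from transfection without naming a round and give other culture and extraction reagents. Both groups come from 1 cell line, and the sources call the libraries triplicates without saying whether they were separate cultures, so p-values measure only the spread between these libraries.

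The 4 SAM68 siRNAs are shown because they define the treated group and because their seeds are searched for in the enzyme mRNAs further on. Each is printed as the 19 bases of its sense strand, and capitals mark the stretch that pairs with bases 2 to 8 of the guide strand (the seed). All 4 matched the coding sequence of KHDRBS1.
siSAM68_1: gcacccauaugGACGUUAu
siSAM68_2: gaaagagcgagUGCUGAUa
siSAM68_3: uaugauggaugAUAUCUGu
siSAM68_4: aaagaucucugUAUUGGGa

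KHDRBS1 had normalized read counts of 15660.4, 14483 and 14737 in the si-CTRL libraries and 583, 602 and 670.2 in the si-SAM68 libraries. Every si-SAM68 library was far below every si-CTRL library, at a mean of 4.13% of control. The log2 fold change was -4.60 ± 0.08 (SE, n = 3 per group; adjusted p = 2.13e-09, limma with Benjamini-Hochberg adjustment over the 18849 loci tested). Libraries held 52625492 to 82568487 reads on annotated loci. One library stood apart, si-SAM68 replicate 2, in which a ribosomal RNA locus took 15.1% of the reads against 1.83% to 3.17% in the other 5. Of the markers of the line, VIM, CD44, KRT8 and KRT18 were abundant, KRT7 was lower, PGR was at 0, and ESR1, CDH1 and EPCAM stayed below the minimum. The locus ERBB2 // MIR4728, of the receptor gene that is not amplified in TNBC, was not low, with 2413 to 3447 normalized reads over the 6 libraries. KRT8 and KRT18 rose in si-SAM68 (log2 0.31 ± 0.08 and 0.35 ± 0.07, adjusted p = 0.0436 and 0.0144, limma, and for KRT8 0.0696 with the replicate block). Of 13 markers of leukocytes, endothelium, fibroblasts, smooth muscle and adipocytes, 4 passed the minimum and 0 reached an adjusted p under 0.05 in limma, edgeR or DESeq2, while 1, CDH5, was lower at an unadjusted p under 0.05. Their summed level was 722.5 to 861 in si-CTRL and 659 to 795 in si-SAM68, most of it PDGFRB, and its part in the results was not tested. In bulk RNA, fewer cells of a type and less RNA per cell cannot be told apart.

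Of the 65 enzyme loci tested, 18 (27.7%) passed an adjusted p of 0.05 in limma, 13 lower and 5 higher in si-SAM68. Among all loci tested the share was 10.7%, made up of 6.23% lower and 4.47% higher, so the enzymes were called more often than loci in general and mostly downward. With the thresholds of the study, an unadjusted p of at most 0.05 and at least 1.5-fold, 7 enzyme loci passed (6 lower, 1 higher) against 7.67% of all loci, of which 4.83% lower and 2.83% higher. The values of the groups did not overlap at 31 enzyme loci, 22 lower and 9 higher, where 33.9% of all loci did not overlap. The median log2 fold change of the enzyme loci was -0.07, beside 0.01 for all loci, so the set as a whole lay near 0 and the calls came from its tails. The enzymes were also better covered than most loci (median 1000.4 normalized reads against 610.1), and with the minimum raised to a mean of 50 there were 20 calls among 60 enzyme loci beside 14.4% of all loci.

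**Figure D1:**
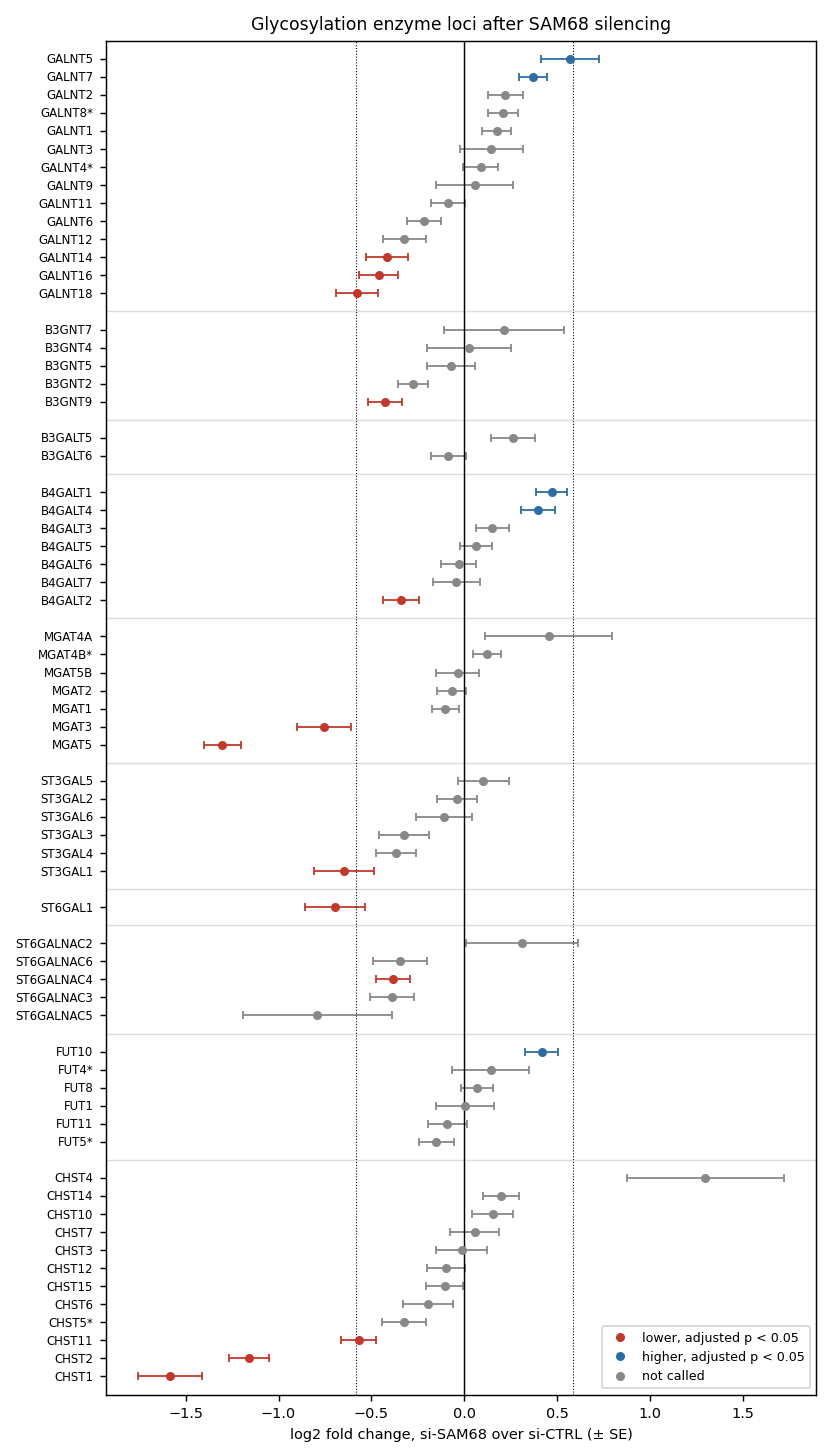
Log2 fold change (x axis, si-SAM68 over si-CTRL, bars are SE, n = 3 per group) of the 65 enzyme loci tested, grouped by family; red and blue mark an adjusted p under 0.05, dotted lines 1.5-fold, and an asterisk a locus joined with another gene. CHST1, MGAT5 and CHST2 lie furthest to the left, and all 12 sialyltransferase loci but 2 lie left of 0.

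The number of calls depended on single libraries. It was 7 without si-SAM68 replicate 2, the library rich in ribosomal RNA, with 4.29% of all loci called, and all 7 were lower. Leaving out si-SAM68 replicate 3 gave 5 calls, with 3.32% of all loci called, and leaving out si-SAM68 replicate 1 gave 11, with 4.90%. Dropping si-CTRL replicate 3 gave 9 calls and dropping si-CTRL replicate 1 gave 22, with 5.85% and 15.1% of all loci called. MGAT5, CHST1, CHST2 and CHST11 were called in all 18 alternatives, MGAT3 and B4GALT1 in 17 of them. FUT10 and GALNT18 were called in 16, B3GNT9 and GALNT16 in 14, and GALNT7 in 13. B4GALT4, GALNT14, ST3GAL1, ST6GAL1 and ST6GALNAC4 were called in 12, and GALNT5 and B4GALT2 in 8. Of the 6 fits with a library left out, B4GALT4, B4GALT2 and GALNT5 were each called in 1. MGAT3 missed at an adjusted p of 0.0693 without si-SAM68 replicate 3 and B4GALT1 at 0.0530 without si-SAM68 replicate 2 (limma), and the direction was the same in every alternative for all 18 enzymes.

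**Figure D2:**
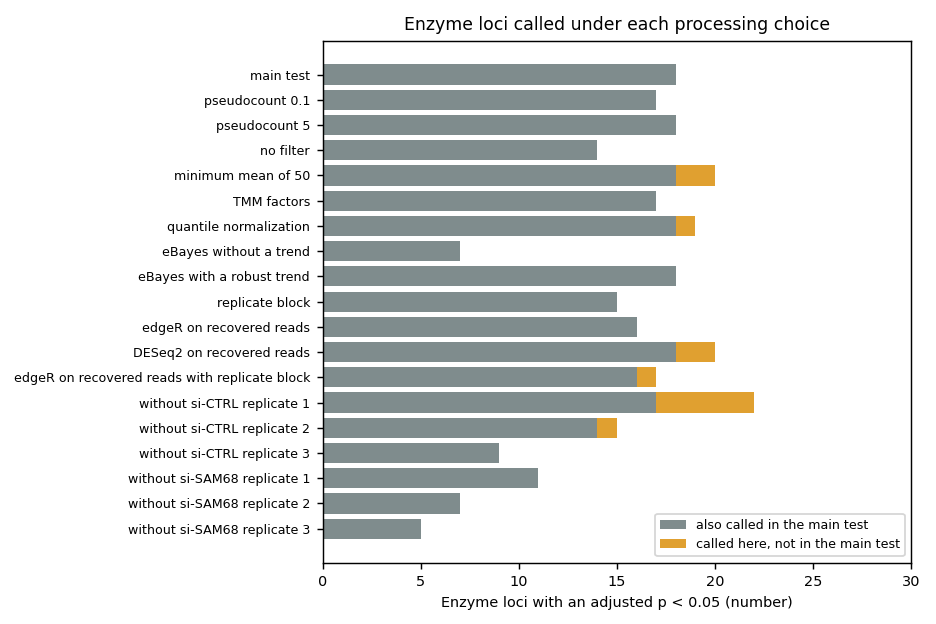
Number of enzyme loci with an adjusted p under 0.05 (x axis) in the main test and under each of the 18 alternatives (y axis); grey bars are loci also called in the main test and orange bars are loci called there but not in the main test. Counts run from 5 (si-SAM68 replicate 3 left out) to 22 (si-CTRL replicate 1 left out).

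The enzymes that start O-glycans moved in both directions. Of the 14 GALNT loci tested, GALNT18, GALNT16 and GALNT14 fell, GALNT5 and GALNT7 rose, and the family median was 0.07. The called share was 35.7%, beside 10.7% of all loci. GALNT7, which acts on peptides that already carry N-acetylgalactosamine, had 8169, 7891 and 7169.9 normalized reads in si-CTRL and 10064, 9812 and 10093 in si-SAM68. The 3 si-SAM68 libraries lay close together and above all controls (log2 0.37 ± 0.08, adjusted p = 0.0150). GALNT5 had 241, 372 and 297 reads in si-CTRL and 487, 419 and 428 in si-SAM68. Its groups did not overlap, but the controls were spread widely and the call was near the threshold (log2 0.57 ± 0.16, adjusted p = 0.0469) and was lost under the replicate block (adjusted p = 0.0745) and in edgeR (0.0524).

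GALNT18 (hg19 chr11:11292421-11643561) had 949, 1134 and 1116 reads in si-CTRL and 735, 778 and 633 in si-SAM68, a fall of all 3 libraries below the lowest control (log2 -0.58 ± 0.11, adjusted p = 0.0131). Its locus overlaps that of CSNK2A3 (mean 73.1 reads) and a locus without a symbol (mean 374.7), and reads may be shared. GALNT16 had 1652, 1604 and 1601 reads in si-CTRL and 1342, 1171 and 1036 in si-SAM68. The controls differed little from each other, and the si-SAM68 libraries were lower and more spread (log2 -0.46 ± 0.10, adjusted p = 0.0221). GALNT14 had 2446, 1819.9 and 1995 reads in si-CTRL and 1613, 1531 and 1514 in si-SAM68, and the highest control stood well above the other two (log2 -0.42 ± 0.11, adjusted p = 0.0413). Among the abundant members, GALNT2 and GALNT1, 2 widely expressed initiating enzymes, were not called (log2 0.22 ± 0.09 and 0.18 ± 0.08, adjusted p = 0.169 and 0.180). The loci GALNT8 // NDUFA9 and GALNT4 // POC1B // POC1B-GALNT4 could not be read as single enzymes and were not called (log2 0.21 and 0.09). GALNT13 was at 0 in every library. All p-values are limma's with Benjamini-Hochberg adjustment.

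Among the chain-lengthening enzymes, 2 galactosyltransferases rose, and 1 galactosyltransferase and 1 N-acetylglucosaminyltransferase fell. They were 3 of 7 B4GALT and 1 of 5 B3GNT loci tested, with 0 of 2 B3GALT loci, where 10.7% of all loci were called. B4GALT1, the main Golgi enzyme that adds galactose to N-acetylglucosamine and the catalytic part of lactose synthase, had 2506, 2324 and 2194 reads in si-CTRL and 3185, 3440.4 and 3108 in si-SAM68. The groups were well apart (log2 0.47 ± 0.08, adjusted p = 0.00842). B4GALT4, a related galactosyltransferase, had 706, 770.0 and 790.0 reads in si-CTRL and 1029, 968 and 983 in si-SAM68, again without overlap (log2 0.40 ± 0.09, adjusted p = 0.0236). B4GALT2, a close relative of B4GALT1, went the other way, with 2889.6, 2569 and 2443 reads in si-CTRL and 2248, 2086 and 1901 in si-SAM68. This was the weakest of the 18 calls (log2 -0.34 ± 0.10, adjusted p = 0.0499) and was lost in 10 of the 18 alternatives. B3GNT9 had 2027, 1809 and 1898 reads in si-CTRL and 1508, 1481 and 1281 in si-SAM68, with every si-SAM68 library below every control (log2 -0.43 ± 0.09, adjusted p = 0.0201). B3GNT2, the main enzyme of poly-N-acetyllactosamine chains, had 3403, 3655 and 3585 reads in si-CTRL and 2779, 2863 and 3155 in si-SAM68. Its groups did not overlap either, but it missed the threshold in limma (log2 -0.28 ± 0.08, adjusted p = 0.0562) and passed it in DESeq2 (adjusted p = 0.0244).

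No call was made for B4GALT5 and B4GALT6, which make lactosylceramide (log2 0.06 ± 0.09 and -0.03 ± 0.10), or for B4GALT7 and B3GALT6, which build the linker between a proteoglycan and its chain (log2 -0.04 ± 0.13 and -0.09 ± 0.09). B3GNT5, which starts lacto-series glycolipids, was at -0.07 ± 0.13. B3GALT5 (log2 0.26 ± 0.12, adjusted p = 0.187 in limma) was the other B3GALT member tested. B3GNT3 and B3GNT6 were at 0 in every library, and B3GALT1, B3GALT2, B3GALT4 and B3GNT8 stayed below the minimum.

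**Figure D3:**
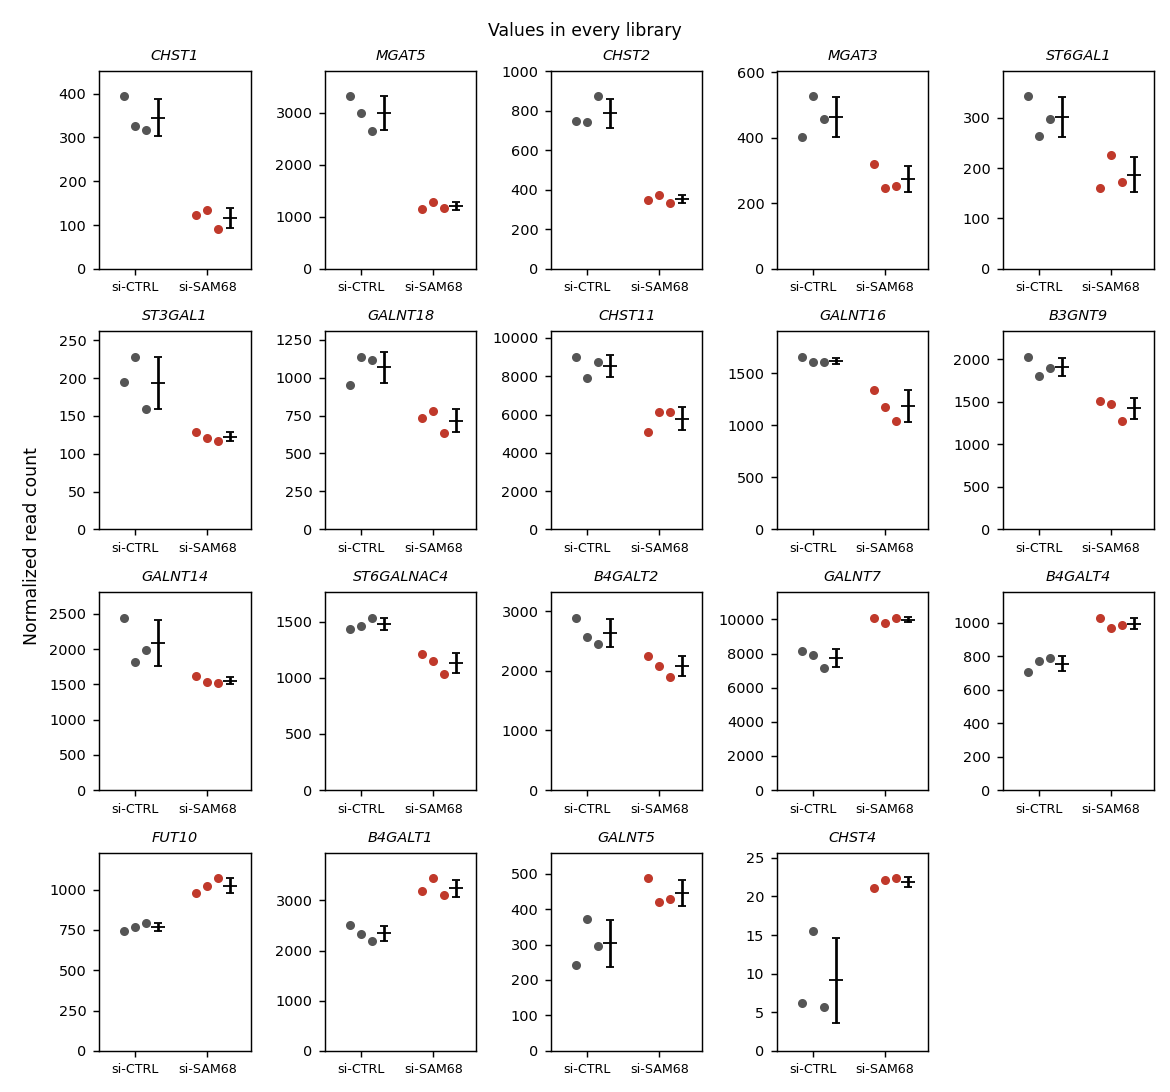
Normalized read count (y axes, from 0) in each si-CTRL (grey) and si-SAM68 (red) library for the 18 enzymes with an adjusted p under 0.05 and for CHST4, ordered by log2 fold change; bars are the mean ± SD (n = 3). In each of the 19 panels the groups do not overlap, and CHST1, MGAT5 and CHST2 have the widest separation.

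Of 7 MGAT loci tested, 2 fell, where 6.23% of all loci did, and MGAT5 had the smallest adjusted p of the enzyme loci. MGAT5 (hg19 chr2:135011825-135212191), which adds the beta-1,6 branch of tri- and tetra-antennary N-glycans, had 3312, 2992 and 2658 reads in si-CTRL and 1150.5, 1291 and 1177 in si-SAM68. The controls and the si-SAM68 libraries lay far apart, and the mean fell from 2987 ± 327 to 1206 ± 74.4 (SD, n = 3), or 40.4% of control. The log2 fold change was -1.30 ± 0.10 (adjusted p = 0.000182), which ranked 139 from the lowest among the 18849 loci tested. MGAT3 (hg19 chr22:39853325-39888197), which adds the bisecting N-acetylglucosamine, had 404, 526 and 458 reads in si-CTRL and 320.4, 247 and 254 in si-SAM68. All 3 si-SAM68 libraries were below the lowest control, with a mean of 59.2% of control (log2 -0.76 ± 0.14, adjusted p = 0.0115).

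The other MGAT loci tested were not called. MGAT1 and MGAT2, which lay down the first 2 branches, were at log2 -0.10 ± 0.07 and -0.07 ± 0.08. By the longest transcript, MGAT2 had the highest level per kb of all enzyme loci read as 1 enzyme. MGAT4B // MIR1229, which holds the gene of a beta-1,4 branching enzyme and a microRNA, was at 0.12 ± 0.08. MGAT5B, the brain-type relative of MGAT5, was at -0.04 ± 0.11 (adjusted p = 0.874 in limma), and the difference between MGAT5 and MGAT5B was not tested. MGAT4A was low (mean 14.9 normalized reads in si-CTRL and 21.2 in si-SAM68) and not called, and MGAT4C stayed below the minimum.

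Of 12 sialyltransferase loci tested, 3 (25.0%) fell, where 6.23% of all loci did. The groups did not overlap at 7 of the 12, all 7 lower, where 17.3% of all loci were lower without overlap. The log2 fold change was negative at 10 loci, though for ST3GAL2 and ST3GAL6, which were not called, the sign depended on single libraries. No call was upward in limma (0 also at an unadjusted p under 0.05), edgeR or DESeq2, where 4.47% of all loci were called upward in limma. At that share, 0 upward calls among 12 loci does not set these enzymes apart. Their median log2 fold change was -0.36. ST6GAL1 (hg19 chr3:186648315-186796341), which adds alpha-2,6 sialic acid to the galactose of N-glycans, had 342, 263 and 299 reads in si-CTRL and 161, 226 and 173 in si-SAM68. The highest si-SAM68 library was the one rich in ribosomal RNA, and it was still below all controls (log2 -0.69 ± 0.16, adjusted p = 0.0256), though the call was lost under the replicate block (adjusted p = 0.0547). ST3GAL1, which caps core 1 O-glycans with alpha-2,3 sialic acid, had 195, 228 and 159 reads in si-CTRL and 129, 121 and 117 in si-SAM68. The spread lay in the controls, and the mean was 63.1% of control (log2 -0.65 ± 0.16, adjusted p = 0.0334). ST6GALNAC4, which adds a further sialic acid to sialylated core 1, had 1432, 1458 and 1533 reads in si-CTRL and 1209.9, 1146 and 1036 in si-SAM68. It fell by less than the others but was the most abundant sialyltransferase per kb of transcript (log2 -0.39 ± 0.09, adjusted p = 0.0259), and its adjusted p under the replicate block was 0.0501.

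Another 4 sialyltransferases had no overlap between the groups and missed the threshold. ST3GAL4 had 1066, 919 and 912 reads in si-CTRL and 792, 784 and 669 in si-SAM68 (log2 -0.37 ± 0.11, adjusted p = 0.0574, and 0.0229 in DESeq2), and ST6GALNAC3 had 315, 313 and 335 against 254, 219.9 and 263 (log2 -0.39 ± 0.12, adjusted p = 0.0673). ST3GAL3, like ST3GAL4 an enzyme of N-acetyllactosamine chains, was at log2 -0.32 ± 0.13 (adjusted p = 0.158), and ST6GALNAC5, the lowest of the tested members at a mean of 11.1 reads, at -0.79 ± 0.40 (adjusted p = 0.236). The ST3GAL3 locus (mean 157.3 reads) overlaps that of KDM4A-AS1 (mean 174.3), and reads may be shared. ST6GALNAC6, whose locus lies 2487 bases from that of ST6GALNAC4 on chromosome 9, was at -0.35 ± 0.14 with overlap (adjusted p = 0.157). ST3GAL5, the GM3 ganglioside synthase, and ST6GALNAC2 were the 2 with positive values (log2 0.10 ± 0.14 and 0.31 ± 0.30). ST6GAL2 and ST6GALNAC1 were at 0 in every library. The p-values are limma's, adjusted over all loci.

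Of 6 fucosyltransferase loci tested, 1 (16.7%) was called, where 10.7% of all loci were. FUT10 had 742, 769 and 793 reads in si-CTRL and 981, 1026 and 1070.2 in si-SAM68, with all 3 si-SAM68 libraries above the controls (log2 0.42 ± 0.09, adjusted p = 0.0172 in limma). FUT8, the core fucosyltransferase of N-glycans and the most abundant FUT per kb, was at 0.07 ± 0.09, and FUT11 at -0.09 ± 0.10. FUT1, the H antigen enzyme, was at 0.00 ± 0.16, and its locus overlaps the much more abundant one of FTL in the annotation. FUT4 // PIWIL4 and FUT5 // NDUFA11 are joined loci and were not called (log2 0.14 and -0.15). FUT9 was at 0 in every library, and FUT2, FUT3, FUT6 and FUT7 stayed below the minimum. FUT3, FUT5 and FUT6 are near-identical neighbours on chromosome 19, and reads may be split among them.

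Sulfotransferases held the largest fall of the set. CHST1 (hg19 chr11:45669239-45687206), which sulfates galactose in keratan sulfate, had 394, 325 and 318 reads in si-CTRL and 123, 133 and 90.5 in si-SAM68. Each si-SAM68 library was far below the lowest control, and the mean fell from 346 ± 41.9 to 116 ± 22.4 (SD, n = 3), or 33.5% of control. The log2 fold change was -1.58 ± 0.17 (adjusted p = 0.000843). CHST2 (hg19 chr3:142838173-142842855), which sulfates N-acetylglucosamine on chains that include ligands of selectins, had 749, 742 and 873 reads in si-CTRL and 351, 373 and 332 in si-SAM68. Both groups were tight, and the mean was 44.7% of control (log2 -1.16 ± 0.11, adjusted p = 0.000401). CHST11 (hg19 chr12:104850692-105155792), the main chondroitin 4-O-sulfotransferase, had 8998, 7896 and 8735 reads in si-CTRL and 5083, 6131 and 6115 in si-SAM68. By the longest transcript it had the highest level per kb of the CHST loci, a rank left unsure by the length used for CHST14. Its mean was 67.6% of control (log2 -0.57 ± 0.09, adjusted p = 0.00641). The p-values are limma's with Benjamini-Hochberg adjustment.

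CHST4, a sulfotransferase of selectin ligands that acts on the same sugar as CHST2, was low, with 6.25, 15.5 and 5.70 normalized reads in si-CTRL and 21.2, 22.1 and 22.3 in si-SAM68. It passed the thresholds of the study but not the adjusted one (log2 1.30 ± 0.42, adjusted p = 0.0800 in limma), and across the alternatives its adjusted p ran from 0.0333 to 0.218. CHST14, the dermatan 4-O-sulfotransferase, had 3155, 3507 and 3595 reads in si-CTRL and 4423, 3781 and 3597 in si-SAM68, which barely separated (log2 0.20 ± 0.10, adjusted p = 0.220). Per kb of the longest transcript, the mean of CHST11 was 1496 normalized reads in si-CTRL and 1012 in si-SAM68. That of CHST14 was 957 and 1101. The transcript used for CHST14 (3574 bases) is longer than its counted locus (hg19 chr15:40763160-40765355). Its level per kb is therefore understated, and the order of the 2 enzymes cannot be read from these values. The difference between their changes was not tested.

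The remaining CHST loci tested were not called. CHST3 and CHST7, the chondroitin 6-O-sulfotransferases, were at log2 -0.01 ± 0.14 and 0.06 ± 0.13. CHST12, a second chondroitin 4-O-sulfotransferase, was at -0.10 ± 0.10, and CHST15, which adds a further sulfate to 4-sulfated chondroitin, at -0.11 ± 0.10. CHST10, the HNK-1 sulfotransferase, was at 0.15 ± 0.11, CHST6 at -0.20 ± 0.13 and CHST5 // TMEM231 at -0.33 ± 0.12 (adjusted p = 0.107 in limma). CHST8 and CHST13 stayed below the minimum and CHST9 was at 0 in every library.

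Levels per kb of the longest transcript differed widely among the tested loci read as 1 enzyme. Ranks by this measure depend on the transcript used. MGAT1 had a mean of 11174 reads and MGAT2 of 11210, over longest transcripts of 8863 and 2687 bases. As means over the 6 libraries, the leading members were MGAT2 (4172 normalized reads per kb), FUT8 (3027), B3GNT5 (2090), GALNT7 (2059), CHST11 (1254), B4GALT5 (1156), B3GALT6 (837), ST6GALNAC4 (770.3), ST3GAL4 (436) and ST6GAL1 (52.6), each in its own family. Next in their families came MGAT4B // MIR1229 (2711), GALNT2 (1494), B3GNT2 (1173), B4GALT3 (1029), CHST14 (1029), FUT11 (523), ST6GALNAC6 (371), ST3GAL6 (128) and B3GALT5 (47.8). The value of CHST14 is understated, because the transcript used is longer than its counted locus, so its place against CHST11 is unsure. Of the enzymes called, CHST1, MGAT5, CHST2 and MGAT3 fell most, and none of them led its family. Leading members were called as well, CHST11, ST6GAL1 and ST6GALNAC4 lower and GALNT7 higher. MGAT5 went from 362 to 146 per kb, CHST2 from 172 to 76.8, CHST1 from 127 to 42.5 and MGAT3 from 91.4 to 54.1, each well under the leading member of its family in both groups. The 3 tested loci with the fewest reads were ST6GALNAC5, CHST4 and B3GNT7.

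**Figure D4:**
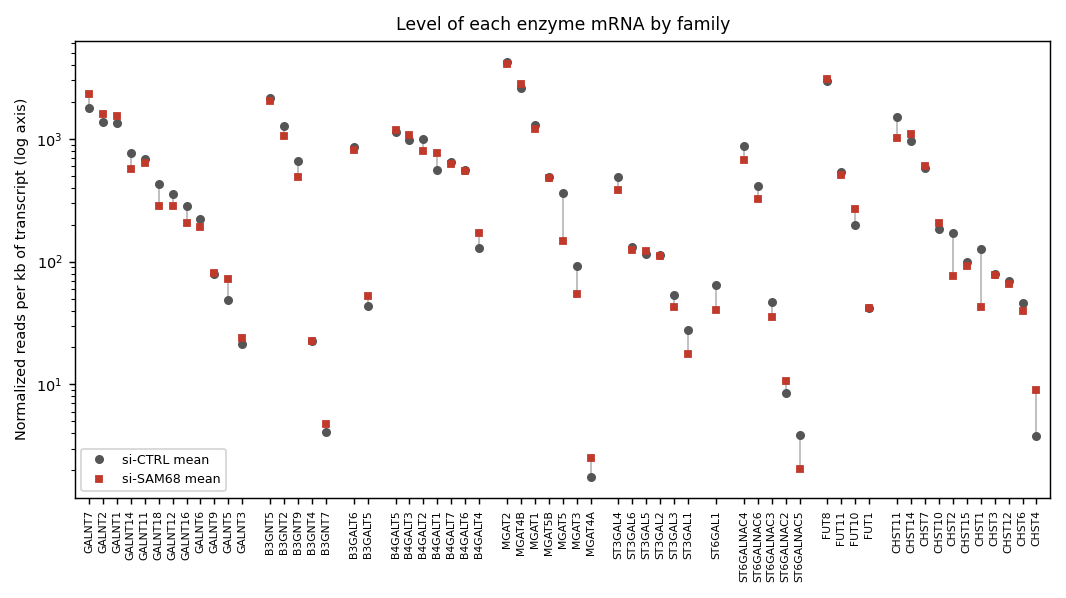
Mean normalized reads per kb of the longest transcript (y axis, log scale) in si-CTRL (grey circles) and si-SAM68 (red squares) for the tested enzyme loci read as 1 enzyme, ordered within families; lines join the group means (n = 3 each). CHST1, MGAT5 and CHST2 have the longest downward lines and lie below the top of their families.

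Other genes of glycan synthesis were read from 10 lists, holding 160 tested loci in all, of which 25 (15.6%) passed an adjusted p of 0.05, 16 lower and 9 higher, where 10.7% of all loci did. The count became 45 when si-CTRL replicate 1 was left out, with 15.1% of all loci called, and 14, 10 and 9 when the si-SAM68 libraries 1, 2 and 3 were, with 4.90%, 4.29% and 3.32%. Among the enzymes that build and branch O-glycan cores, 2 of 6 changed. GCNT1, which makes core 2, rose from 2716, 3112 and 2882 reads to 4325, 4044 and 4264 (log2 0.54 ± 0.08, adjusted p = 0.00367), while its relative GCNT4 fell from 132, 159 and 167 to 96.7, 101 and 95.0 (log2 -0.64 ± 0.15, adjusted p = 0.0293, and 0.0501 with the replicate block). In limma, 0 of 13 loci of N-glycan trimming and lysosomal tagging passed (7 at an unadjusted p under 0.05), as did 0 in edgeR and 3 in DESeq2, and their median was 0.03. Of 24 loci of Golgi retention and transport, 0 passed in limma (6 at an unadjusted p under 0.05), 0 in edgeR and 2 in DESeq2, with a median of -0.01. Among all loci, 10.7% passed in limma, 10.7% in edgeR and 14.8% in DESeq2.

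Of the 20 other chain-extending transferases, 2 fell and 2 rose (20.0% called, where 10.7% of all loci were). B4GALNT4, which makes LacdiNAc, fell (log2 -0.64 ± 0.12, adjusted p = 0.00929), and UGCG, the glucosylceramide synthase at the locus MIR4668 // UGCG, rose (log2 0.40 ± 0.07, adjusted p = 0.0105). Of 20 loci of glycosaminoglycan chain synthesis, 3 fell and 1 rose (20.0% as well). CHSY3, a chondroitin synthase, had 16.2, 22.3 and 22.8 reads in si-CTRL and 1.0, 1.8 and 6.7 in si-SAM68 (log2 -2.59 ± 0.57, adjusted p = 0.0201), a low gene whose fold depends on few reads. XYLT1, which starts the chains, fell (log2 -0.58 ± 0.12, adjusted p = 0.0178). The hyaluronan synthases, which work at the plasma membrane, went in opposite directions: HAS2 fell from 516, 334 and 431 reads to 245, 276 and 294 (log2 -0.63 ± 0.16, adjusted p = 0.0358, and 0.0555 with the replicate block) and HAS3 rose from 391, 504 and 493 to 945, 908 and 772 (log2 0.92 ± 0.13, adjusted p = 0.00271). Among 13 other Golgi sulfotransferases, UST, which sulfates uronic acid in dermatan and chondroitin, and HS3ST3A1, a heparan sulfate 3-O-sulfotransferase, fell (log2 -0.70 ± 0.12 and -0.52 ± 0.08, adjusted p = 0.00651 and 0.00572). These 2 falls were 15.4% of that list, where 6.23% of all loci fell. The median of the list was -0.24. No call was upward in limma, edgeR or DESeq2, where 4.47% of all loci were called upward in limma. At that share, 0 upward calls among 13 loci does not set the list apart. At an unadjusted p under 0.05, 0 loci of the list were higher in limma, 2 in edgeR and 0 in DESeq2.

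Of 28 loci for sugar and sulfate donors and their transporters, 2 fell and 2 rose (14.3% called, where 10.7% of all loci were). GFPT2 and UAP1, enzymes of the route to UDP-N-acetylglucosamine, fell (log2 -0.44 ± 0.08 and -0.29 ± 0.07, adjusted p = 0.0101 and 0.0309), and SLC35A3, which carries that donor into the Golgi, rose (log2 0.49 ± 0.10, adjusted p = 0.0148). The locus FPGT // FPGT-TNNI3K // TNNI3K passed only the thresholds of the study (log2 0.66 ± 0.21, adjusted p = 0.0771, and 0.0466 with the replicate block). Of 13 sialidases, fucosidases and sulfatases, 2 rose and 1 fell (23.1% called). The lysosomal enzyme FUCA1 rose (log2 0.41 ± 0.08, adjusted p = 0.0154), the steroid sulfatase locus MIR4767 // STS fell (log2 -0.48 ± 0.12, adjusted p = 0.0343) and NEU4, a low sialidase, was at 0.73 ± 0.25 (adjusted p = 0.0970). All these p-values are limma's, adjusted over all loci.

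Among the proteins that carry such chains, 18 proteoglycan cores and mucins were tested, with a median of -0.21. Of these, 4 fell and 1 rose (27.8% called, where 10.7% of all loci were). SDC2, the heparan sulfate proteoglycan syndecan-2, had 137, 205 and 177 reads in si-CTRL and 62.5, 53.4 and 51.4 in si-SAM68 (log2 -1.60 ± 0.19, adjusted p = 0.00123). CSPG4, a chondroitin sulfate proteoglycan, fell (log2 -0.44 ± 0.10, adjusted p = 0.0226), as did PODXL, a sialomucin (log2 -0.73 ± 0.20, adjusted p = 0.0427, and 0.0568 with the replicate block), whose 14583 reads in si-CTRL replicate 1 were far above the 7519.8 and 8998 of the other controls. The 1 that rose was MUC1, a membrane mucin, named after its values were seen (log2 0.38 ± 0.10, adjusted p = 0.0427, and 0.0615 with the replicate block). MUC2 and MUC20 were low and passed only the thresholds of the study (log2 -1.11 ± 0.44 and -0.84 ± 0.32, adjusted p = 0.140 and 0.128). Of 6 lectins tested, 1 (16.7%) was called. This was MRC2, a collagen-binding receptor of the mannose receptor family, which fell (log2 -0.70 ± 0.12, adjusted p = 0.00611). The p-values are limma's.

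**Figure D5:**
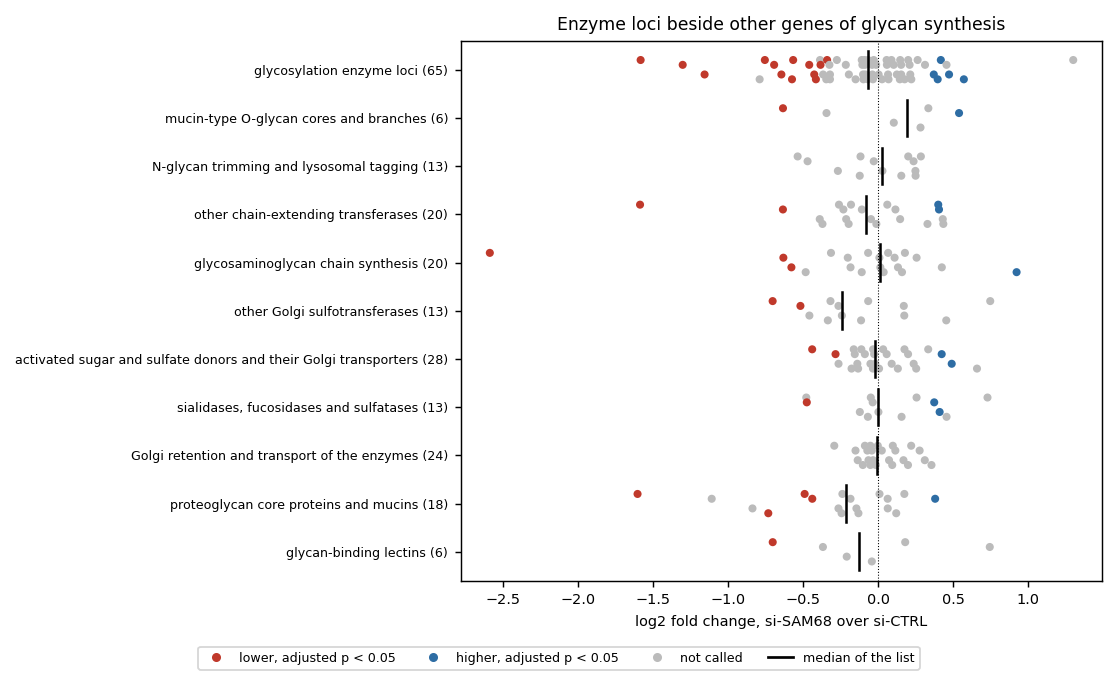
Log2 fold change (x axis, si-SAM68 over si-CTRL) of every tested locus of the enzyme families and of 10 lists of related genes, with the number tested in parentheses; red and blue points have an adjusted p under 0.05 and black bars are medians. The medians lie between -0.24 and 0.19, and the lowest single value is that of CHSY3 at -2.59.

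An siRNA is known to act also on mRNAs that match its seed in the 3′UTR, so matches of the pools were counted in the enzymes. The 7 bases in capitals in each SAM68 siRNA, searched on the mRNA strand with T for U, occurred at least once in the longest 3′UTR (GENCODE 29) of 24 of 60 tested enzymes (40.0%) and of 29.8% of 11973 tested single-gene loci. The 3′UTRs of the enzymes were also longer, with medians of 2128.5 and 1384 bases. A match was present in 6 of the 13 enzymes that fell (46.2%), in 1 of the 5 that rose (20.0%) and in 17 of 42 not called (40.5%). The 6 were MGAT5, CHST11, GALNT16, GALNT18, ST3GAL1 and ST6GAL1, while CHST1, CHST2 and MGAT3 held none of the 4 stretches in this window. Sites of MGAT5, CHST11 and ST6GAL1, which fell, and of B4GALT4, which rose, are shown as examples of called enzymes with more than 1 match. ST3GAL1 also carried more than 1, and its sites are not shown. Enzymes that were not called carried several matches too, among them ST6GALNAC5, CHST12, ST3GAL5, ST6GALNAC3 and B3GALT5. Each site is printed from the transcript in the same 19-base frame as the siRNAs, with the seed match in capitals.
MGAT5 site 1: tgacatctccaTGCTGATg
MGAT5 site 2: ggttttgccatTGCTGATc
CHST11 site 1: aattatatggaTATTGGGt
CHST11 site 2: tttccagccatTGCTGATg
CHST11 site 3: gttgacttagcATATCTGa
ST6GAL1 site 1: attaactgtctTATTGGGa
ST6GAL1 site 2: attatgatatgGACGTTAt
B4GALT4 site 1: gccatgaacacTGCTGATa
B4GALT4 site 2: ctggttgcagcTGCTGATa
Seeds of the control pool, present in the si-CTRL cells, matched 41 of the 60 enzymes (68.3%) and 56.3% of the single-gene loci. Of the enzymes whose sites are shown, MGAT5, ST6GAL1 and B4GALT4 carried control seeds as well, and CHST11 did not. The part of seed matches in the results was not tested.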

How the data were processed

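RNA of MDA-MB-231 cells was measured by RNA-seq in 3 si-CTRL and 3 si-SAM68 libraries, grouped and numbered by their labels. The authors deposited 1 table whose values are a signal, read counts at the loci of the FAST DB annotation (hg19) scaled with size factors from DESeq2. The submitters' processing notes name STAR 2.4.0, SAMtools, Picard and DESeq2. The counting program and its strand setting are not given in the sources used here, so overlapping loci and paralogs can share reads. All values (100%) were whole multiples of the value of 1 read, within 0.01 of a read, and reads were recovered from them. Loci at 0 in all libraries numbered 41493 of 74852.

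The test was limma 3.58.1 (lmFit, eBayes with a trend; R 4.3.3) on log2(value + 1), so that fold changes of low genes are understated, restricted to loci whose mean was 10 or more, with Benjamini-Hochberg adjustment over all 18849. SE is that of the fitted log2 fold change. Alternatives were pseudocounts of 0.1 and 5, no filter, a minimum mean of 50, TMM and quantile scaling, eBayes without a trend or robust, a replicate block, edgeR 4.0.16 (with and without the block) and DESeq2 1.42.0 on recovered reads, and each library left out in turn. The programs were tested on simulated counts. Correlations of deviations from the group means were 0.105, 0.231 and 0.125 for libraries with the same number and -0.125 to 0.00687 otherwise, with every same-number value above 0.1, and the numbers were therefore taken to pair the libraries. Deviations within a group of 3 sum to 0, which ties these values to each other, so the pairing remains unsure. The main test did not use this pairing, and the replicate block, which does, is given as an alternative. Precision is limited by 3 libraries per group.

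By the rule, members that passed an adjusted p of 0.05 or the thresholds of the study were named with values in every library; B3GNT2, ST3GAL4, ST6GALNAC3 and CHST14, given in the same way, were chosen after their values were seen. Others were named for the highest or second highest level per kb in their family, the lowest level, or 0 in every library, and in each related list for the up to 3 smallest adjusted p-values under 0.05 or for passing the thresholds of the study; further members are named to account for the families, and some genes of the related lists are not reported here. The families, lists and rules were chosen with earlier results of these data known. Transcript lengths and 3′UTR sequences came from GENCODE 29 (GRCh38), the longest of each gene, without use of its coordinates.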

Additional observations from a re-analysis of the deposited data

How the results depend on the processing

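None of the 19 enzymes called by either rule turned direction under any alternative that was fitted. Of the 46 tested enzyme loci not called, 15 had the other sign under at least 1 alternative, all with a log2 fold change of at most 0.14 in size. Dropping single libraries left KHDRBS1 between -4.66 and -4.56 and the median of the enzyme loci between -0.11 and -0.06. Without a trend in eBayes, 7 enzyme loci, 11 loci of the related lists and 899 of all loci were called, against 18, 25 and 2017. DESeq2 called 20 enzyme loci, 41 loci of the related lists and 2789 of all loci. With single libraries dropped there were 5 to 22 enzyme loci, 9 to 45 loci of the related lists and 625 to 2839 of all loci, and 7 to 10 enzyme loci past the thresholds of the study. The cause was not tested. With the replicate block, 15 enzyme loci were called (lost were GALNT5, ST6GAL1 and ST6GALNAC4), 21 of the related lists and 1697 of all loci. The count past the thresholds of the study was 7. With the block in edgeR, 17 enzyme loci and 1722 of all loci were called. The calls of named genes that the block changed are given beside their values, and it changed no other. Rescaling by TMM moved the median of all loci by 0.0023 on the log2 scale. Over the named genes and alternatives together, 133 values were no longer past their threshold, 16 came past it, 937 kept their side and 1, ST3GAL6, which was not called, moved by more than its SE (log2 -0.27 without si-SAM68 replicate 3). With 3 libraries per group, changes of genes near the minimum of 10 reads, such as CHST4 and ST6GALNAC5, were measured with wide error.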
